A study of Rattus norvegicus with 18 samples.

Results

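The region described is the stretch of rat chromosome 6 from 2000000 to 4000000 (rn6 build), read at single CpGs in testis DNA. Its members are the CpGs with 10 or more reads, both strands summed, in at least 4 libraries of each group, and 1309 of the 4615 CpGs with any reads there met this rule, out of 1316745 in the whole genome. The region was selected on measured values: it surrounds the CpG at 2754555 to 2754556, whose methylation an earlier analysis of the same libraries had called different between the groups. Differences between the groups within it are therefore given as a description. Counts from the fit over the whole genome are printed for orientation and are not a test of the region. Gene context was not analysed here, and no sequence is shown, for want of a genome of the rn6 build.

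The libraries came from testes of Wistar rats aged 8 weeks, 6 from rats under chronic sleep restriction (CSR) and 6 from control rats. The assay was RRBS (reduced representation bisulfite sequencing), which cuts DNA with the restriction enzyme MspI, keeps CpG-rich fragments and treats them with bisulfite. The labels give neither the sleep restriction schedule nor whether each library is 1 animal, so the spread between libraries may be technical in part. The submitters' codes conflict: a letter used for CSR among the RNA samples stands in the codes of methylation libraries that are labelled control. Every direction below follows the labels. DNA libraries hold no expression, so the labelled tissue was not checked against marker genes. CSR libraries 2 and 3 stood apart as a pair that was much alike, as described further on, and values without either of them are given in the closing section.

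In mammalian DNA most CpGs carry a methyl group on both strands, while CpG-dense stretches, many of them at gene starts, are mostly free of it. Levels between these extremes arise where cells of a tissue, or the parental chromosomes, differ. Bisulfite turns unmethylated cytosine into a base read as thymine. A thymine already present in an animal's DNA is read the same way, and tables of percent C and T cannot separate these cases. Wistar rats are an outbred stock, so animals can carry different alleles.

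Coverage summed over the CpG cytosines of a table was between 46257452 and 68940379, where a read over several CpGs counts at each. Summed over the members it was between 36102 and 57829 per library. The median was 28 reads where a CpG was read 10 times or more. Between 1089 and 1271 members had 10 reads in a given library, and 588 had them in all 12. The rule's coverage limit cut through a continuous range: 306 members had just 4 such libraries in their poorer group and a mean level of 54.3%, while 354 CpGs left out had 3 and a mean level of 51.3%. The outermost members lay at 2017686 (97.0%) and 3993404 (67.1%), and the nearest CpGs beyond the ends that met the coverage rule lay at 1998338 (98.1%) and 4001742 (94.7%).

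Along the region, levels alternated between methylated stretches and short stretches that were almost unmethylated. Of the 1309 members, 334 (25.5%) had a mean level under 10%, 392 (29.9%) lay between 10 and 90%, and 583 (44.5%) were at 90% or more. Over all CpGs of the genome under the same rule these shares were 23.8, 30.2 and 46.0%. Members no more than 300 bp apart formed 222 stretches, of which 36 held 10 or more. Among these, 12 stretches with 273 members were on average under 10% methylated and 14 stretches with 198 members were at 90% or more. The low stretches included 1 from 2568965 to 2569683 with 47 members at a mean of 1.14%, 1 from 2315268 to 2315769 with 36 members at 1.13%, and 1 from 2886234 to 2886666 with 32 members at 0.335%. A highly methylated stretch from 3686099 to 3686613 held 20 members at 98.0%, and another from 3150147 to 3151026 held 17 members at 96.8%.

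The mean over the 588 members read in all libraries was 66.2 ± 0.418% in CSR libraries and 66.6 ± 0.686% in control libraries (SD, n = 6 each). The difference of -0.353 points, CSR minus control, was smaller than the SD of either group. Its sign changed with the weighting and with the CpGs used. It was 2.04 points with the same 588 CpGs weighted by reads, and 0.345 points over the 244 CpGs left by a minimum of 20 reads. On the plus strand alone it was 0.0248 points over 230 CpGs, and on the minus strand alone 0.0396 points over 206. Apart from the weighting, these settings keep fewer CpGs, so they do not measure the same set. Of the 588 members read in all libraries, the 99 under 10% averaged 1.72 ± 1.09% in CSR libraries and 2.16 ± 0.95% in control libraries. The 209 between 10 and 90% averaged 56.8 ± 1.34% in CSR libraries and 58.1 ± 1.58% in control libraries. The 280 at 90% or more averaged 96.1 ± 0.264% in CSR libraries and 95.7 ± 0.472% in control libraries. The SD of a member's level over the libraries had a median of 5.62 points, against 5.96 points over all CpGs of the genome. Counting reads would by itself give a median SD of 3.86 points at these coverages.

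**Figure D1:**
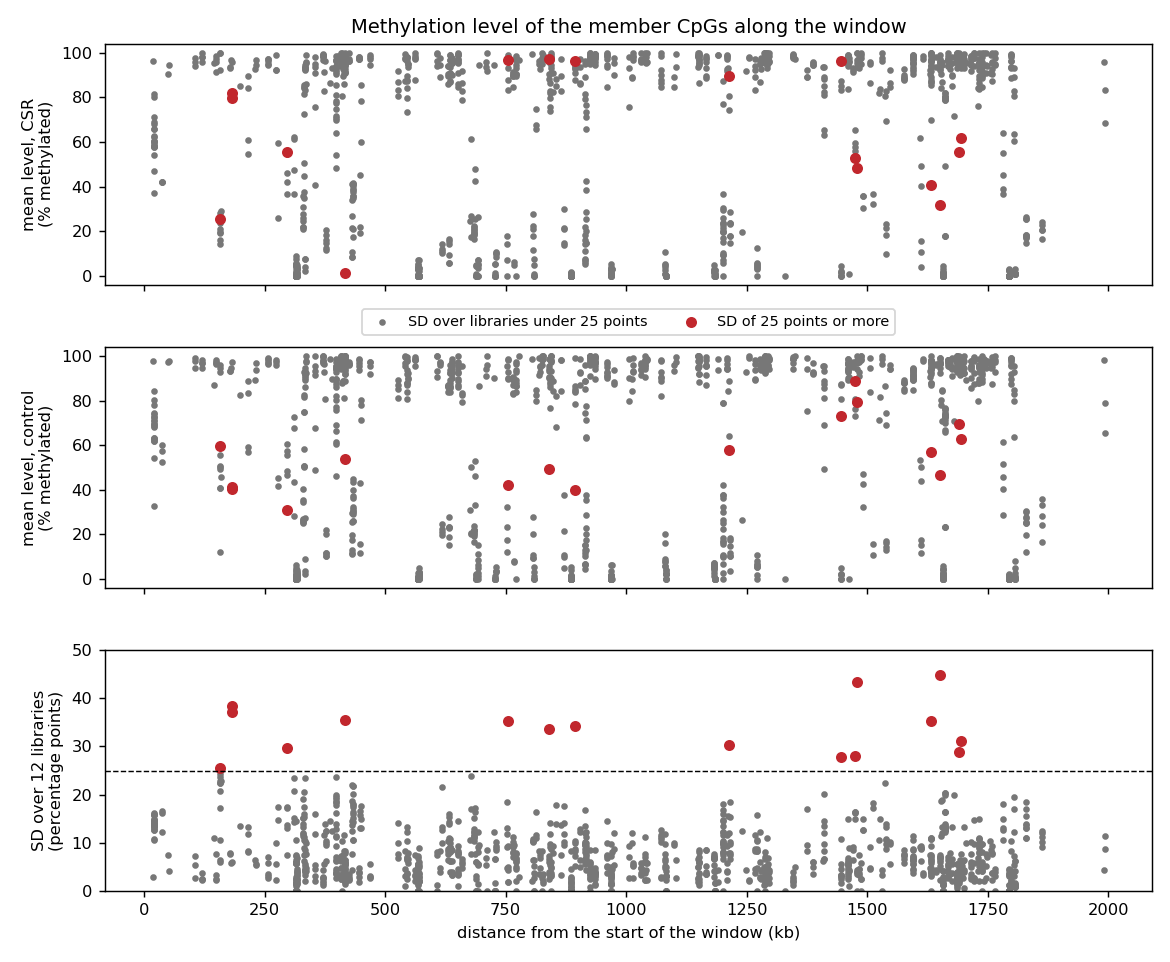
Mean methylation level of each member CpG in CSR libraries (top) and control libraries (middle), and the SD of its level over the libraries (bottom, percentage points), against the distance from the start of the region in kb. Most members keep to the top or the bottom of the level axis in both groups, and the 16 CpGs with an SD of 25 points or more (red) are scattered among them.

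The CpG from 2754555 to 2754556, by which the region was picked, was almost fully methylated in every CSR library and anywhere from absent to almost full in the control libraries. CSR libraries 1 to 6 read 95.9, 100, 97.0, 94.2, 96.5 and 96.7%, and control libraries 1 to 6 read 40.8, 43.0, 94.1, 0, 26.5 and 47.9%. Control library 3 stood with the CSR libraries, control library 4 had no methylated read, and the remaining control libraries lay below 50%. The groups did not overlap, but the lowest CSR library and control library 3 were 94.2 and 94.1%. Library values rest on 49 to 142 reads in CSR and 34 to 103 reads in control. The Wilson 95% interval was 31.8 to 50.4% for control library 1 and 14.6 to 43.1% for control library 5. The 0 of 83 reads in control library 4 allows a level of up to 3.61%; intervals and limits cover counting error only. The mean was 96.7 ± 1.88% over CSR libraries and 42.1 ± 30.9% over control libraries (SD, n = 6 each), 54.7 points apart.

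Most of these reads came from the minus strand, and the plus strand put the libraries at the same extremes. Control library 4 had 0% on both strands, from 14 plus and 69 minus reads, and control library 3 had 100% and 89.5%. The intermediate control libraries 1, 2, 5 and 6 read 22.2, 63.6, 28.6 and 68.2% on the plus strand, from 9 to 22 reads, and 42.6, 39.7, 25 and 41.9% on the minus strand. Control libraries 2 and 6 thus lay above 50% on the plus strand and below it on the minus strand, at 11 and 22 plus reads. In the CSR libraries with plus reads, that strand read 95.5 to 100%.

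The 5 other members within 200 bp did not share the step. CpG 2754542, the nearest, averaged 88.0 ± 3.18% in CSR libraries and 90.01 ± 5.38% in control libraries. CpG 2754571 averaged 98.9 ± 1.38% in CSR libraries and 98.6 ± 2.29% in control libraries, and CpG 2754586 averaged 98.0 ± 1.59% in CSR libraries and 98.4 ± 2.02% in control libraries (SD, n = 6 each). Control library 4, at 0% in the CpG between them, read 89.9% at 2754542 and 98.8% at both 2754571 and 2754586. The SD over all libraries was 35.3 points at 2754555 and at most 9.40 points at its neighbours.

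**Figure D2:**
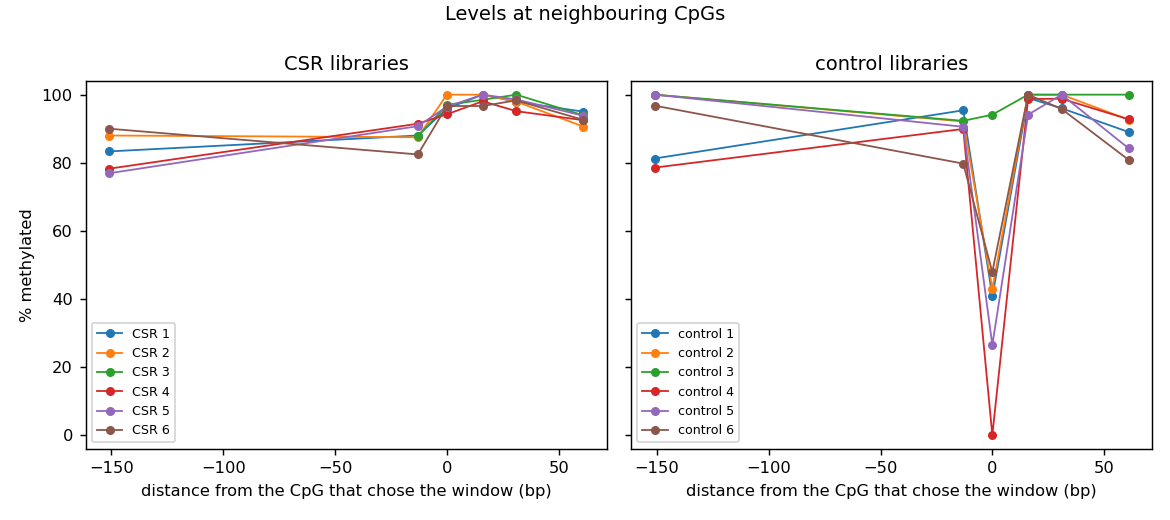
Percent methylated in each CSR library (left) and each control library (right) at the CpG that chose the region, placed at 0, and at the 5 other members within 200 bp, against distance in bp. Only at 0 do control libraries 1, 2, 4, 5 and 6 drop, to between 0 and 47.9%, while all CSR libraries and control library 3 stay above 94%.

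In a fit over all CpGs of the genome, the quasi-binomial model called 3 of 1238661 CpGs (0.000242%), and CpG 2754555 was the single call among the 1187 members tested. This call was lost with CSR libraries 2 and 3 summed as 1 library, without CSR library 2, 3 or 5 or control library 5, at a minimum of 5 reads, with the dispersion of each CpG alone and with limma on log2 ratios. With 1 library left out, the count over the genome ran from 0 to 20. A further 122 members had reads of only 1 kind over the libraries and were not tested. Of the members, 98 had an unadjusted p under 0.05, or 8.26% of those tested, against 7.55% over the genome. Groups did not overlap at 3 members, or 0.229%, against 0.325% over the genome. These were 2754555, 2893584 and 3632405, named here after their values were seen. CpG 3632405 averaged 69.7 ± 7.16% over CSR libraries and 88.0 ± 3.07% over control libraries (SD, n = 4 each), at a median of 19.5 reads. Since the contrast chose the region, nothing is read from these counts. The difference was 20 points or more at 22 members, higher in CSR at 10 of them. The 22 are 1.68% of the members, against 0.860% over the genome. They are not separate observations. Several of those lower in CSR lie in the stretch from 2158358 to 2158607, whose neighbouring CpGs are largely read on the same fragments. Others share the pattern of 2754555 described further on, so the share overstates the number of separate sites.

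A few CpGs of the region varied widely from library to library, in many cases within a group as well as between the groups. At 16 members the SD over the libraries was 25 points or more, which is 1.22% of the members against 0.869% of all CpGs and 0.974% of those on chromosome 6. Among 868 windows of 2 Mb with at least 500 CpGs, 227 had a higher share, and the shares ran from 0 to 5.19% with a median of 0.735%. The limit of 25 points was chosen after seeing the data: the lowest SD inside it was 25.5 points, and the next below it was 24.2 points. The observed SD at these 16 was 1.84 to 6.46 times that expected from counting reads, and 14 of them were read 10 times in all 12 libraries.

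Most of the 16 varied far more than the members around them, though not all stepped between fixed levels. At 13 of them, the other members within 200 bp, steep ones aside, had SDs of at most 12.1 points. The exceptions were 2158358, 2297236 and 3474556, with neighbours varying by up to 24.2, 17.4 and 16.4 points. Among the 13, CpGs 2181924 and 2182020 were not isolated from each other. They lie 96 bp apart, differed by 2.53 points and had just 1 other neighbour each. CpG 3213459 had neighbours at mean levels of 69.2 and 84.7%, with SDs of up to 12.1 points. CpG 3651013, the most variable member, read 5.56, 0, 0, 85.7, 0 and 100% in CSR libraries 1 to 6 and 26.1, 0, 0, 97.5, 56.1 and 100% in control libraries 1 to 6. Its neighbours, the nearest 2 bp away, had mean levels of 94.4 to 96.8% and SDs of at most 7.51 points. CpG 3478854 read 100, 0, 0, 44.7, 100 and 43.9% in CSR and 85, 0, 95.7, 100, 100 and 96.8% in control, between neighbours at 93.8 to 98.9%.

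A single pattern over the libraries recurred at 4 members spread over 476391 bp. The likeness of 2 CpGs was measured as the mean absolute difference of their levels over the libraries, taken directly or with 1 of them mirrored (100% minus its level). A CpG at 100% everywhere would differ from 2754555 by 30.6 points. Within 10 points of it lay 2893584 (4.86 points), 2839969 (5.5 points) and, mirrored, 2417193 (6.35 points), each over 12 libraries. This limit, too, was set after seeing the data, and no member lay between 6.35 and 11.9 points.

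CpG 2893584, 139029 bp away, read 89.7 to 100% in CSR libraries and 38.5, 52.8, 78.8, 0, 30.3 and 40% in control libraries 1 to 6, at 28 to 56 reads. CpG 2839969, 85414 bp away, read 92 to 100% in CSR libraries and 46.5, 53.1, 100, 0, 33.0 and 64.4% in control libraries 1 to 6, at 38 to 92 reads. At both, control library 4 was at 0%, control library 3 was closest to the CSR libraries and the remaining control libraries were intermediate. CpG 2417193, 337362 bp away on the other side, was the mirror image. It read 0% in CSR libraries 1 to 5 and 6.67% in CSR library 6, and 60, 71.4, 0, 100, 48.4 and 41.9% in control libraries 1 to 6, at 12 to 43 reads. Its 14 neighbours within 200 bp had mean levels of 89.9 to 99.4%, so the unmethylated reading of the CSR libraries was confined to this CpG among them. The group differences at these CpGs were 56.1, 47.7 and -52.5 points, CSR minus control, and since they share 1 pattern they are not separate results.

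On either side the pattern held in part. CpG 3213459 was 11.9 points away: control library 4 read 0% and control libraries 1, 5 and 6 read 41.0, 51.1 and 58.9%, but control library 2 read 95.1%, next to 100% in control library 3 and 82.5 to 100% in CSR. CpG 3446703 was 16.6 points away, and there control library 4 was at 0% while the other control libraries read 71.4 to 100% and the CSR libraries 93.0 to 98.6%. Towards the start of the region, CpG 2181924 (13.5 points) and CpG 2182020 (14.1 points) added low levels in other libraries. At 2181924 CSR libraries 1 to 6 read 56.5, 100, 100, 86.2, 35.7 and 100%, and control libraries 1 to 6 read 38.3, 44.2, 94.9, 0, 0 and 64.3%. These 2 CpGs are 96 bp apart and differed by 2.53 points, and control library 5 was at 0% in both, unlike at 2754555. Control library 4 read 0% at 8 of the 16 CpGs and over 90% at 6 others.

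The pattern of 2754555 was also met outside the region. Over the genome 12 CpGs, that CpG included, lay within 10 points of it, 4 in the region, 1 elsewhere on chromosome 6 at 989465, 5 on chromosome 8 and 1 each on chromosomes 2 and 3. The region thus held 33.3% of such CpGs, which are 0.306% of its members against 0.000911% over the genome. The share of 33.3% depends on the limit, which was set after seeing the data. It was 66.7% (4 of 6) at 8 points, 14.7% (5 of 34) at 12 points and 4.02% (7 of 174) at 15 points. Each count includes 2754555 itself, which matches by definition and lies in the region because it chose it. This raises every share, most of all where few CpGs are counted. CpG 989465 read 88.9 to 100% in the CSR libraries with 10 reads and 32, 100, 0, 0 and 50% in control libraries 1, 3, 4, 5 and 6. The 5 on chromosome 8 lay between 51283404 and 52955068. At the most alike of them, 52955067 (mirrored, 7.11 points), CSR libraries 1 to 5 read 0% and CSR library 6 read 58.8%.

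Towards the end of the region other patterns took over. CpGs 3691014 and 3693944, 2930 bp apart, differed by 9.52 points. At 3691014 the levels were 37.7, 38.5, 38.1, 88.6, 36.8 and 92.9% in CSR libraries 1 to 6 and 40.3, 38.7, 43.8, 95.6, 100 and 97.4% in control libraries 1 to 6, which puts CSR libraries 4 and 6 with control libraries 4, 5 and 6 at a high level and all others near 40%. The same libraries were the high ones at 3693944, at 91.7 to 100%, with 17.1 to 58.7% in the others. CpGs 3631695 and 3651013, 19318 bp apart, were 18.7 points from each other. At both, CSR libraries 4 and 6 and control libraries 4 and 6 were the highest, at 79.1 to 93.9% and 85.7 to 100%. The 2 strands differed by a mean of 18.6 points at 3631695 and 17.9 points at 3693944, over 12 libraries each. At the other steep CpGs with 10 reads on each strand in some library, this mean was 1.96 to 12.1 points. CpG 3478854 had no partner among the 16 within 20 points. Joining those within 10 points of each other left 11 groups, of which the group of 2754555 was the largest, with 4 CpGs.

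**Figure D3:**
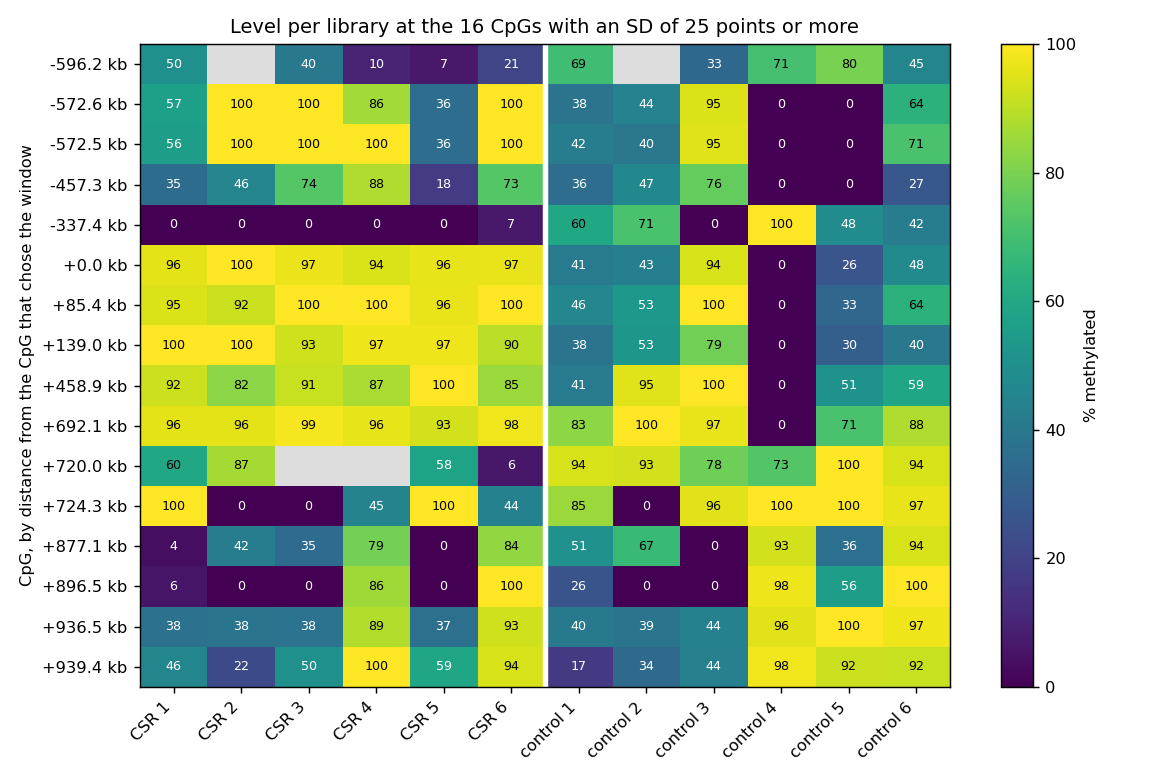
Percent methylated (colour and number) in the 6 CSR libraries (left) and the 6 control libraries (right) at the 16 CpGs with an SD of 25 points or more, ordered by distance from the CpG that chose the region; grey marks fewer than 10 reads. The rows of 2754555 (at 0 kb) and of the CpGs 85414 and 139029 bp after it share a pattern, the row of the CpG 337362 bp before it is the mirror image, and the last rows follow other libraries.

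Larger differences between the group means came with wide spread within the groups. Beside the CpGs of the shared pattern, the largest positive differences were 40.5 points at 2182020 and 39.5 points at 2181924, with SDs of 28.8 points in CSR libraries and 38.0 points in control libraries at 2182020. The largest negative ones after 2417193 were -36.0 points at 3474556, -34.2 at 2158358, -31.5 at 3478854 and -29.5 at 2158399. At 3474556 CSR libraries 1, 2, 5 and 6 read 60, 86.7, 57.9 and 6.25%, and control libraries 1 to 6 read 93.8, 93.3, 77.8, 73.3, 100 and 93.8%, at 10 to 27 reads. CpG 2297236 was graded rather than stepped: it read 35.3, 45.7, 73.6, 88.2, 17.6 and 73.5% in CSR libraries 1 to 6 and 35.6, 46.8, 76.5, 0, 0 and 27.3% in control libraries 1 to 6. The groups overlapped at all of these.

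A stricter definition, by fixed levels, gave few CpGs. With every library within 15 points of 0, 50 or 100% and no level held by more than 3 in 4 libraries, 3 members qualified, 2181924, 3478854 and 3691014, or 0.229% against 0.140% over the genome. Each had a pattern of its own. CpG 2754555 fell outside because control library 5 read 26.5%.

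Across the 16 steep CpGs the CSR libraries fell into 3 pairs. CSR libraries 4 and 6 differed by a mean of 6.04 points over 15 CpGs, CSR libraries 2 and 3 by 6.62 points over 14 and CSR libraries 1 and 5 by 8.90 points over 16. The other 63 pairs of libraries differed by 12.7 to 83.0 points, and the closest pair of control libraries by 18.2 points. At the remaining members, with SDs under 25 points, the 3 pairs differed by 7.20, 7.30 and 6.76 points, within the 6.35 to 7.95 points seen over all 66 pairs. Elsewhere in the genome, at CpGs with SDs of 25 points or more, CSR libraries 2 and 3 differed by 15.1 points over 8681 CpGs, while the other 65 pairs differed by 31.4 to 38.1 points. CSR libraries 4 and 6, at 37.0 points, and CSR libraries 1 and 5, at 34.7 points, were within that range, so their likeness in the region was not met genome-wide. Whether CSR libraries 2 and 3 share an animal was not tested. The 16 CpGs were chosen for their spread over these libraries and several follow 1 pattern, so they do not count as separate observations of likeness.

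**Figure D4:**
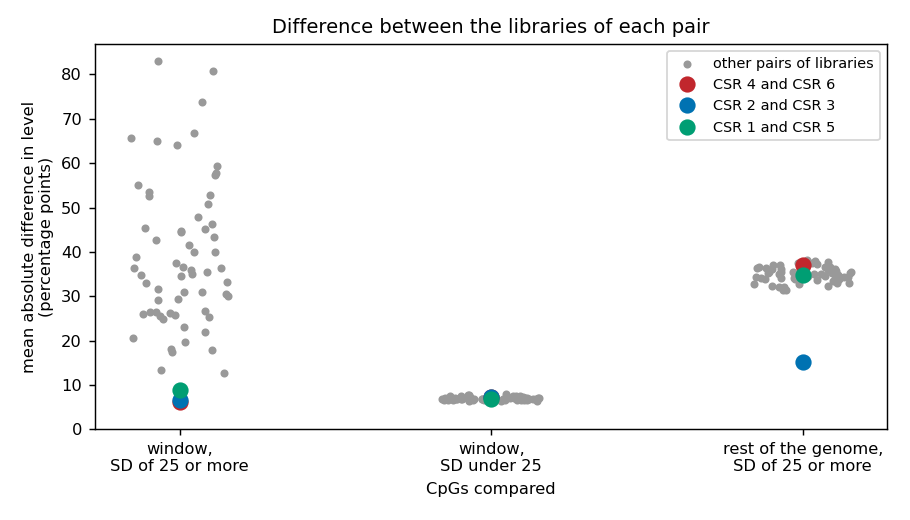
Mean absolute difference in level (percentage points) between the libraries of each of the 66 pairs at the 16 steep CpGs of the region, at its other members and at steep CpGs of the rest of the genome; grey points are spread sideways for visibility. The 3 closest CSR pairs lie between 6.04 and 8.90 points in the first column, and only CSR libraries 2 and 3 stay apart from the other pairs in the last, at 15.1 points.

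A second kind of variation ran over whole stretches of neighbouring CpGs. In 8 stretches at least 4 members ranged over 50 points or more between libraries, and these stretches held 48 of the 110 members with such a range. Those 110 were 8.40% of the members, against 7.19% of all CpGs of the genome. Neighbouring CpGs here are largely read on the same fragments, so they are not separate observations. The stretch from 2158358 to 2158607 had 9 members, 8 of them with such a range. Over its 6 members read in all libraries, CSR libraries 1 to 6 held 37.5, 6.67, 39.8, 5.62, 5.62 and 18.4% of reads methylated. Control libraries 1 to 6 held 38.4, 37.5, 32.3, 57.6, 54.8 and 22.7%. Summed over these members there were 60 to 186 reads per library, and the sums overstate the depth. Single ones of these members had medians of 15.5 to 16 reads. Counting reads alone gives them an SD of up to 12.1 points, and the stretch had 18.0 points over the libraries. Whether its spread exceeds counting error was not tested. CSR libraries 2, 4 and 5 were the lowest, and the pairs seen at the steep CpGs were not kept: CSR libraries 2 and 3 stood at 6.67 and 39.8%.

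In the stretch from 2020311 to 2020969, with 20 members, levels ran from 36.2 to 68.9% in CSR libraries and from 48.0 to 83.3% in control libraries, with means of 59.0 ± 12.8% in CSR libraries and 65.3 ± 11.6% in control libraries (SD, n = 6 each). The extremes were CSR library 6 and control library 4, at 632 to 873 summed reads per library. Single members had medians of 21 to 75 reads, and a read over several members counts at each, so these sums overstate the depth. Another, from 2398587 to 2398874, averaged 70.2 ± 13.5% in CSR and 71.5 ± 14.6% in control. CSR library 1 was lowest at 47.2% and control library 2 highest at 86.5%, at 80 to 224 summed reads per library. Its members had medians of just 14 to 21 reads and largely share fragments, so the sums overstate the depth. Counting reads alone gives its single members an SD of up to 13 points, and the stretch had 13.4 points over the libraries. Whether its spread exceeds counting error was not tested. In each of these 3 stretches the groups overlapped. The stretches from 2433260 to 2433523 and from 3661571 to 3661705 had no member read in all libraries, so no level per library is given for them.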

How the data were processed

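The authors deposited 1 table per methylation library. Per the file headers, its columns hold coverage, a read count per CpG cytosine, and the percent of those reads showing C or T. Trim Galore, Bismark, SAMtools and the rn6 build are named in the submitters' processing notes; the sources used here give no versions or settings. The lowest coverage in the tables was 5 reads per strand, so a strand with fewer adds nothing to a sum. Methylated reads were recovered as coverage times percent, which came out whole after rounding, and summed over both strands. Levels were used where a CpG had 10 or more reads.

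Every CpG of the genome was fitted with a 2-group quasi-binomial logistic regression on read counts. Dispersions were moderated with squeezeVar (limma 3.58.1, R 4.3.3), with Benjamini-Hochberg adjustment, a threshold of 0.05 and a difference of at least 10 points. Libraries under 10 reads at a CpG were dropped from its fit. The model was also run on simulated data, but the outcome is not given here, so nothing is read from that run. Other values were computed with Python 3.11.15 and pandas 2.3.3. CpGs named are the one that chose the region and those within 200 bp, the 8 with the largest SD, the 5 largest differences in each direction, those of the largest pattern groups and those at the limits; the other CpGs with an SD of 25 points or more were added after their values were seen. The region, its members and the lists were chosen with earlier results of these data known. Alternatives were other coverage minimums, tools, strands, classes and each library left out. The RNA libraries were not used here.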

Additional observations from a re-analysis of the deposited data

Results flagged for a closer look

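The lowest and highest libraries were checked for a wide gap to the rest in 54 groups of 4 to 6 libraries. Such gaps were seen in 3 groups, where 2.7 would arise by chance, at about 1 in 20, if the groups were independent. All 3 lie at CpGs chosen for their spread over the libraries, and several steep CpGs share 1 pattern. The expected number is therefore only a rough guide, and nothing is read from it. At CpG 2417193, CSR library 6 read 6.67%, from 30 reads, and the other CSR libraries 0%. At CpG 3446703, control library 4 read 0% and the other control libraries 71.4% or more. At CpG 3478854, control library 2 read 0% and the other control libraries 85% or more.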

How the results depend on the processing

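The call at 2754555 depended on the method and on single libraries. The region held 0 calls, by the quasi-binomial model, with a coverage minimum of 5 reads, with the dispersion of each CpG alone and with CSR libraries 2 and 3 summed as 1 library, and 0 with limma on log2 ratios, without or with a replicate block; over the genome these gave 0, 21, 0, 1 and 1 calls. Unadjusted p-values under 0.05 numbered 53 to 153 in the region over all alternatives, but the number of CpGs tested changed as well. The 53 were of 594 tested at a minimum of 20 reads, against 45738 of 649838 over the genome. The 153 were of 1921 tested at a minimum of 5 reads, against 148760 of 1818565. Replicate numbers gave no sign of pairing over 650667 CpGs. Deviations of same-numbered libraries correlated by -0.0073 to 0.0119, and those of differently numbered libraries by -0.0229 to 0.0200. Whether same-numbered libraries shared a batch or litter was not tested. With 1 library left out the region held 0 to 3 calls and the genome 0 to 20. There were 0 in both without CSR library 2, 3 or 5 or control library 5. The region held 3 without control library 3. The genome held 7 without CSR library 1, 9 without control library 1 or 3, 20 without control library 2 and 1 without control library 4. The difference at 2754555 stayed between 46.3 and 65.1 points with 1 library left out, and was 46.8 points on the plus strand, in 9 libraries, and 56.6 on the minus strand. The mean difference over the region, -0.353 points over 588 CpGs, lay between -0.497 and -0.164 points with 1 library left out. It was 2.04 points with the 588 CpGs weighted by reads. Over fewer CpGs it was 0.345 points with 20 reads (244 CpGs), 0.0248 on the plus strand (230) and 0.0396 on the minus strand (206). The 3-level CpGs numbered 0 with classes within 10 points, 22 within 20 points, with a largest group of 4, and 3 to 6 with 1 library left out (6 without control library 5), with a largest group of 1 to 2 (2 without control library 5 or 6). Chosen after seeing the data, limits of 15 points gave 7 CpGs like 2754555 in the region and 174 over the genome. An SD of 20 points, also chosen after seeing the data, gave 38 steep CpGs in the region. At the main limits, 10 points and an SD of 25 points, the region held 4 and 16 such CpGs. With 1 library left out, those main counts were 4 to 6 and 13 to 18. Depth limits single levels: counting reads alone gives a member a median SD of 3.86 points.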

Other observations

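Almost unmethylated stretches also held single libraries that stood higher. In the stretch from 3182906 to 3183001, with 12 members, all read in every library, CSR library 3 had 9.30% of reads methylated and the other CSR libraries 0 to 1.14%. Control library 4 had 18.0% and control library 1 had 8.64%, and the other control libraries had 0 to 2.10%, at 189 to 714 reads per library summed over the 12 members. In the next such stretch, from 3183555 to 3183683, also with 12 members, the CSR libraries had 0 to 1.69% and all control libraries 0%, at 191 to 829 summed reads. Members this close are largely read on the same fragments, so the sums overstate the depth. Single members had medians of 24 to 25 reads in the first of these stretches and 31 to 32 in the second. Whether a few molecules gave the higher levels was not tested.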
